A study of Mus musculus with 6 samples.

Results

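Noncoding rows are gene entries of the deposited count tables for which exons were counted but no coding sequence (CDS) and no untranslated region. Of 23698 rows, 3282 were of this kind. The 489 described here were chosen by their RNA-seq counts: each held 20 or more over both RNA-seq libraries together. The remaining 2793 fell short of that minimum, and 1960 of those had no RNA-seq count in either library. Ribosome footprints played no part in the choice, but RNA-seq counts did, so every footprint-to-RNA ratio is given as a description with no test. Nearest outside the limit were 5830418P13Rik with 19.9 RNA-seq counts and 2 footprints, 1700084E18Rik with 19.8 and 1, and LOC101669761 with 19.6 and 55. Nearest inside it were Gm6524 with 20 RNA-seq counts and 12 footprints, 4833418N02Rik with 20.1 and 0, and B930003M22Rik with 20.2 and 0.

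The cells were a model of squamous cell carcinoma (SCC): mouse keratinocytes taken from back skin at P0, carrying HrasG12V and a Tgfbr2 fl/fl knockout (KO), and grown to passage 10 to 15. The count tables used here hold 1 ribosome profiling library of them, which reads the RNA fragments that ribosomes protect from nuclease, and 2 RNA-seq libraries of total mRNA, deposited as replicates. Long-read libraries of SCC cells, of wild-type keratinocytes and of epidermal stem cells came without count tables and were not analysed here. No untransformed cells were profiled in these tables, so nothing can be said on how the carcinoma genotype bears on any value. What drives HrasG12V and whether the replicates were separate cultures is not stated in the labels.

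Exon counts summed to 3549555 in the ribosome profiling library and to 10707930.1 and 14003713 in RNA-seq replicates 1 and 2. Both RNA-seq libraries were kept as separate replicates: over the 489 noncoding rows their counts differed with a chi-square of 3.55 per degree of freedom, and over 11260 coding rows of 6.81, so they were not the same library deposited again. The log2 ratio of replicate 2 to replicate 1 had an SD of 0.43 over noncoding rows and 0.28 over coding rows. With 1 ribosome profiling library, footprint values have no replicate spread. Their 95% intervals are exact Poisson intervals of the footprint count, and these, like the floor of 3 footprints used for a count of 0, cover counting error only, because PCR copies are not independent molecules.

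The keratinocyte label was checked against markers. All 10 basal keratinocyte genes of the list passed 20 RNA-seq counts, with a summed level of 8549 RPKM (counts scaled by counted length and library total) in ribosome profiling and of 15899 and 18128 RPKM in RNA-seq. The most abundant was Krt5, a keratin of the basal layer, at 3821, 7965 and 9483 RPKM. Dermal fibroblast genes summed to 5.19, 13.3 and 19.9 RPKM, with Twist2 the most abundant in ribosome profiling, Col3a1 in RNA-seq, and Col1a1, Col3a1, Dcn and Lum at 0 footprints. Leukocyte genes summed to 8.87, 37.9 and 46.3 RPKM, most of it on Cd68, a lysosomal protein gene, with Lyz2, a lysozyme gene of macrophages, at 0, 2.71 and 8.56 RPKM, while Cd3e was at 0 in all 3 libraries and Ptprc at 0 footprints. Melanocyte genes summed to 0.898, 5.49 and 5.52 RPKM with Pmel the most abundant in RNA-seq and Dct, Tyrp1 and Mlana at 0 footprints, and endothelial genes to 0.724, 0.505 and 0.652 RPKM with Kdr the most abundant and Pecam1, Cdh5 and Tek at 0 footprints. Within these lists, the label fitted a keratinocyte culture. How far RNA of other cells entered single noncoding rows was not tested.

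Noncoding genes make RNAs of several kinds. Long noncoding RNAs (lncRNAs) are made and often spliced like mRNAs but lack a long conserved reading frame, and many, such as Neat1 and Malat1, stay in the nucleus, away from ribosomes. Hosts of small nucleolar RNAs (snoRNAs) carry guide RNAs for ribosomal RNA modification in their introns, and their spliced exons reach the cytoplasm, where short reading frames can be read and nonsense-mediated decay removes many of the transcripts. Processed pseudogenes are copies of mRNAs pasted back into the genome, so a short read from the parent mRNA can match them too.

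Sequences of 4 groups are shown so that a reader can see which RNAs the rows stand for. The 5′ ends of snoRNA host genes come first, since several carry the terminal oligopyrimidine (TOP) tract of ribosomal protein mRNAs. The tract was searched for on the gene's strand as a C at the annotated start followed by 4 or more bases that are each C or T, and is given in capitals. It stood at 3 of 9 annotated starts of 8 host genes with a RefSeq promoter entry, and at 823 of 32851 promoters in all (2.51%). A looser search, within 10 bases either side of the start, found it at 6 of the 9 starts and at 25.5% of all promoters. A match is a description, not a site shown to act. The hosts with a tract were Gas5, at the downstream of its 2 annotated starts (chr1:161035166-161035195, plus strand), Snhg7 (chr2:26640215-26640244, minus strand) and Snhg8 (chr3:123508307-123508336, minus strand). Snhg1 (chr19:8723487-8723516, plus strand) is shown beside them as a host whose annotated start has a C and then too short a tract. These first 30 bases are from RefSeq, GRCm38.p6.
Gas5: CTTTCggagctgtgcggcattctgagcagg
Snhg7: CTCTCggcagccatggcggctctatgtttg
Snhg8: CTCTTTggctgcgatccgcctacgagtatg
Snhg1: ctcatttttccttgttcggggtaagtactc

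Stretches of 3 snoRNA rows with high footprint-to-RNA ratios follow. Box C/D snoRNAs (Snord) carry a TGATGA near their 5′ end and box H/ACA snoRNAs (Snora) an ACA near their 3′ end, given in capitals. Searched on the transcript strand only, TGATGA was in the first 30 bases of 72 of 98 annotated Snord transcripts (73.5%) and ACA in the last 10 bases of 40 of 42 annotated Snora transcripts (95.2%), so the letters mark the family and not these members. The stretches are from GENCODE M21: the 5′ end of Snord96a (chr11:48802032-48802061, plus strand), and the 3′ ends of Snora43 (chr2:26637847-26637876, minus strand) and Snora64 (chr17:24720876-24720905, plus strand).
Snord96a: gatcctagTGATGAcaagacgacattgtca
Snora43: gcactaagaatggtttgtagcctgACAttt
Snora64: gcctctcttgcctagaggagcaccACAggt

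For the microRNA (miRNA) hairpin rows, the mature sequences of those with the most RNA-seq counts are shown from RefSeq, GRCm38.p6, with the seed (bases 2 to 8) in capitals. They are Mir682 (chr13:75645119-75645139, plus strand), Mir703 (chr5:98475616-98475636, minus strand) and the 5′ arm of Mir3064 (chr11:106782736-106782757, minus strand), and no 2 of them share a seed.
Mir682: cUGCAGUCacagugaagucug
Mir703: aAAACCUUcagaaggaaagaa
Mir3064: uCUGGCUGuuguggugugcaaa

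Last is a stretch of the Gapdh CDS, bases 280 to 309, shown because the same 30 bases stand in 3 pseudogene rows, 3000002C10Rik, Gm5069 and Gm5523, that were among the rows with the most footprints. No letters are in capitals, because the whole stretch is shared. It is from GENCODE M21.
Gapdh: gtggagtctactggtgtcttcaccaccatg

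The median noncoding row held few footprints for its RNA, while a minority stood far above the coding genes' median. The ratio used throughout is footprint RPKM over the mean RPKM of both RNA-seq replicates, on a log2 scale, minus the median of the 11260 coding rows with 20 or more RNA-seq counts. A row was called low below -1 and high above 1, that is 2-fold from the coding median, and a row with 0 footprints was called low only where 3 footprints would still have put it below -1. A row with footprints was called from its value alone, however few they were. The median noncoding row stood at -1.92 ± 0.09 (SD over the 2 RNA-seq replicates). Low rows numbered 237 of 489 (48.5%), beside 2452 of all 11752 rows with 20 or more RNA-seq counts (20.9%). High rows numbered 60 (12.3%), beside 2233 of all (19%). Rows with 0 footprints numbered 145 (29.7%), beside 604 of all (5.14%), and 76 of the 145 could be called low at their depth while 69 could not. In 32 more rows the estimated footprint count lay between 0 and 1. Of the low rows, 85 had footprints but fewer than 3, and 40 of these would not be low at 3. With 1 RPKM added to both values the median was -0.48 and 169 rows were low, so the size of the difference depends on how rows with few counts are treated.

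Noncoding rows were also thinner in RNA, which limits such counts. Among rows with 20 to 100 RNA-seq counts, the 241 noncoding rows had a median of -1.90 and 86 without footprints (35.7%), and the 1254 coding rows a median of -0.72 and 347 without (27.7%). At that depth 75 noncoding rows were low (31.1%) and 43 high (17.8%), beside 288 (23.0%) and 284 (22.6%) coding rows. Among rows with 100 or more, 162 of 248 noncoding rows were low (65.3%) and 17 high (6.85%), beside 1926 (19.2%) and 1889 (18.9%) of 10006 coding rows. So the lower position of noncoding rows was seen at both depths. RNA-seq counts are the denominator of the ratio, so no trend of these shares with depth is read.

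The 3′UTRs of coding genes give a scale for RNA that elongating ribosomes do not read. Over 9186 of them the median was -4.57 against the same coding median, and 23.1% had no footprint. The median noncoding row lay between that and the mRNAs. Of the noncoding rows with footprints, 18 were below the 3′UTR median and 106 above the coding median, and the 145 rows at 0 footprints were not placed on this scale.

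**Figure D1:**
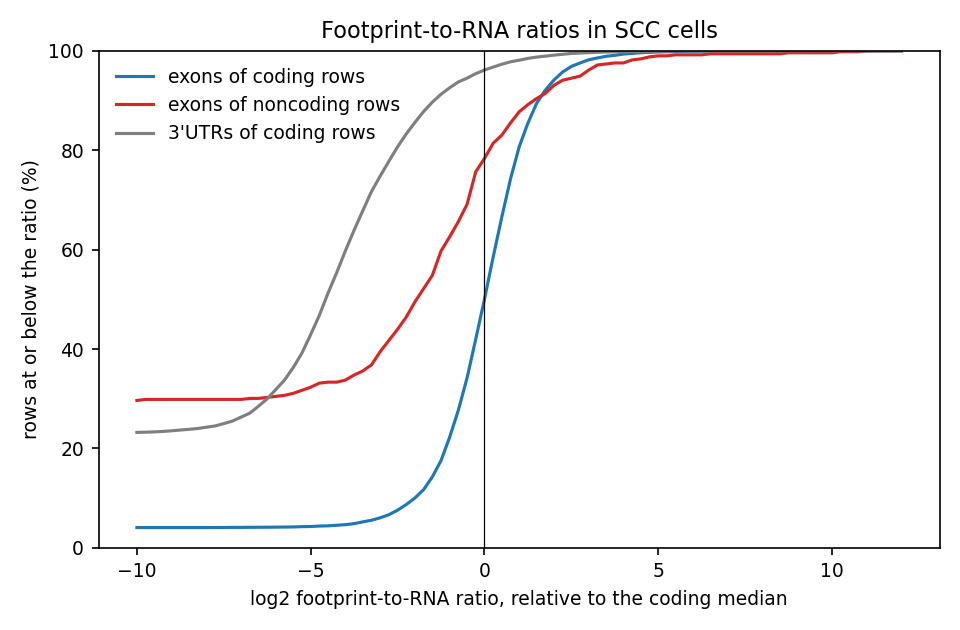
Cumulative share of rows (vertical axis, percent) at or below each log2 footprint-to-RNA ratio (horizontal axis, relative to the coding median) for exons of 11260 coding rows, exons of 489 noncoding rows and 3′UTRs of 9186 coding rows. Rows with 0 footprints are counted from the left edge, 29.7% of the noncoding rows and 23.1% of the 3′UTRs, and the noncoding curve lies between the other two in the middle of the axis.

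In total, the noncoding rows took 58186 footprints, 1.64% of the exon footprints (95% Clopper-Pearson interval 1.63 to 1.65%), and 1.48% and 1.50% of the exon counts in RNA-seq replicates 1 and 2. That near-equal share rested on very few rows. The 6 with the most footprints, all above 4000, held 66.5% of the noncoding footprints and 17.3% and 19.5% of the noncoding RNA-seq counts. Without these 6 rows, left out after seeing the data, noncoding rows held 0.549% of the exon footprints.

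Name classes separated the rows by kind. The medians were high for snoRNA rows and moderately low for snoRNA host genes, miRNA rows were mostly empty, and the large Gm, Rik and other classes had low medians with long tails. The 10 Snhg and Gas5 hosts had a median of -0.98 and a range from -2.52 to 0.98, with 5 low and none high or at 0. All 13 Snor rows had footprints, with a median of 2.75, 8 high and 1 low. Of 13 Mir rows, 8 had no footprint, 7 were low and none was high. The Gm class, 109 gene models without a curated name, had a median of -1.49 with 49 low (45.0%), 14 high (12.8%) and 30 at 0 (27.5%). The Rik class, 234 rows named after full-length cDNA clones, had a median of -2.36 with 122 low (52.1%), 24 high (10.3%) and 77 at 0 (32.9%). The other 110 rows had a median of -1.85 with 53 low (48.2%), 14 high (12.7%) and 30 at 0 (27.3%). With 1 RPKM added to both values, the medians of Gm, Rik and other were -0.37, -0.52 and -0.47, within 2-fold of the coding median. Without rows that overlap an exon of another gene or have no reference transcript they were -0.50, -1.79 and -0.72.

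**Figure D2:**
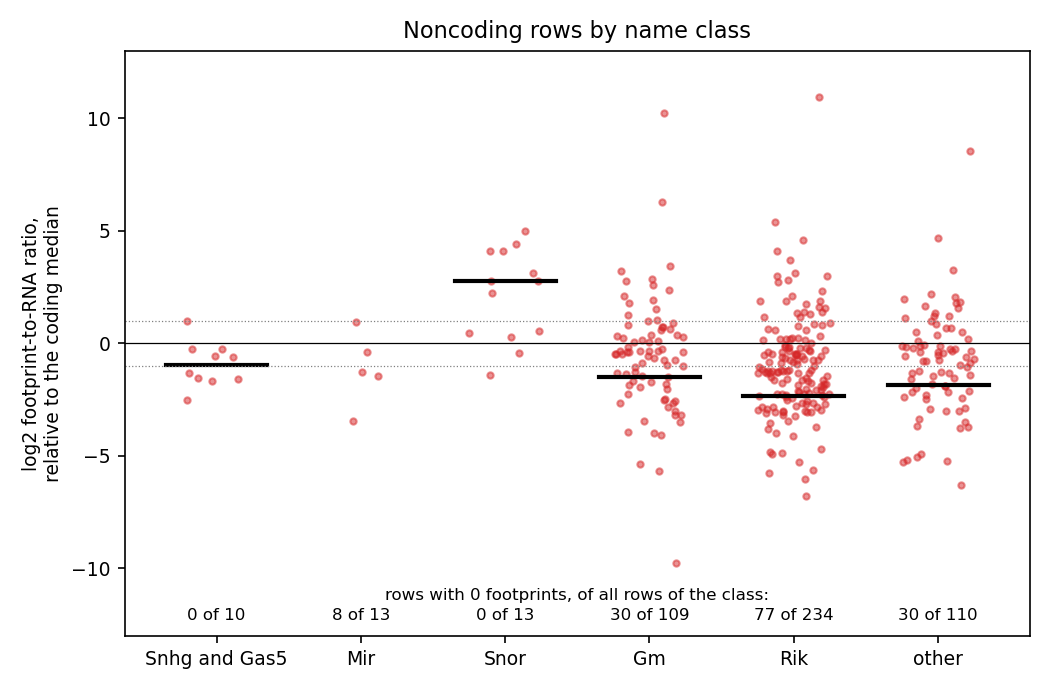
Log2 footprint-to-RNA ratio relative to the coding median (vertical axis) for noncoding rows with footprints, 1 point a row, by name class (horizontal axis), with dotted lines at -1 and 1. Thick bars are class medians with rows of 0 footprints ranked lowest, whose number stands under each class: the Snor bar lies at 2.75 and the Rik bar at -2.36, and Mir has no bar since most of its rows had no footprint.

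Names hid a further division. RefSeq, which matched 479 of the 489 rows by symbol or synonym, gave 362 as lncRNA, 74 as pseudogene, 19 as protein coding, 13 as snoRNA, 10 as miRNA and 1 as ribosomal RNA. The lncRNAs had a median of -2.69 with 200 low (55.2%), 29 high (8.01%) and 128 at 0 (35.4%). The pseudogenes had a median of 0.08 with 19 low (25.7%), 20 high (27.0%) and 6 at 0 (8.11%). Over all rows with 20 or more RNA-seq counts these shares were 20.9%, 19% and 5.14%. Within the Gm class the same split gave -3.09 for 74 lncRNAs and 0.34 for 31 pseudogenes, and within the Rik class -2.66 for 210 lncRNAs and -0.20 for 13 pseudogenes. Pseudogenes held 74.4% of the noncoding footprints and 47.1% and 48.7% of the noncoding RNA-seq counts, whereas lncRNAs held 7.40% of the footprints and 40.6% and 39.2% of the RNA-seq counts.

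**Figure D3:**
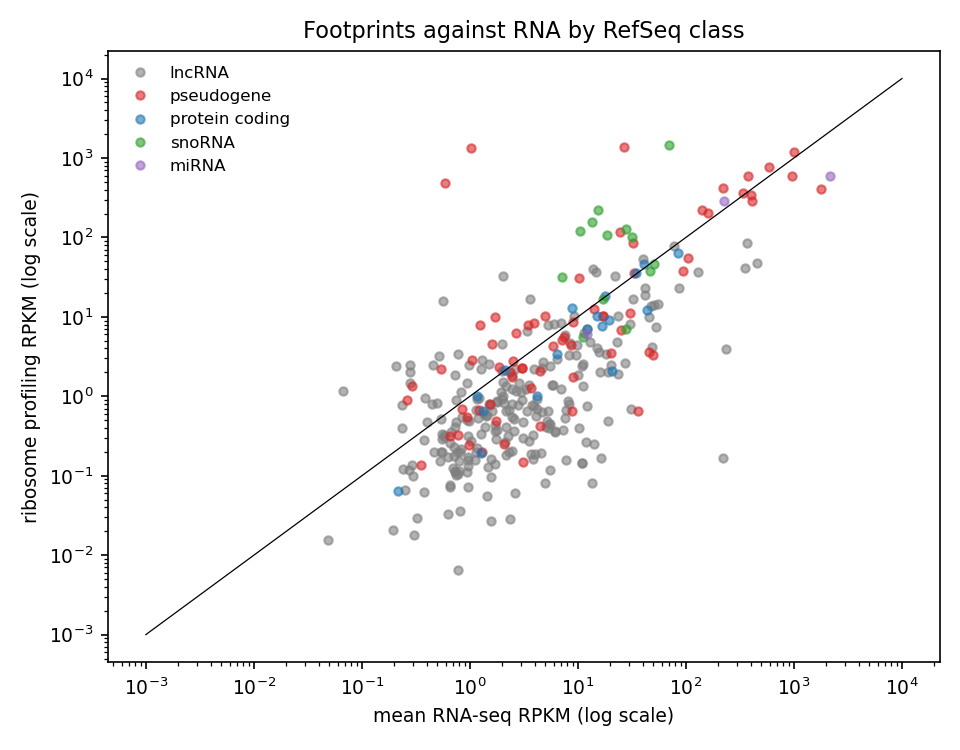
Ribosome profiling RPKM (vertical axis, log scale) against mean RNA-seq RPKM (horizontal axis, log scale) for noncoding rows with footprints, coloured by RefSeq class. The diagonal marks equal RPKM; pseudogenes crowd near it at high RNA, lncRNAs lie mostly under it, and rows that RefSeq does not name, or names as ribosomal RNA, are not drawn.

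Among the snoRNA host genes, the 2 most abundant were both low. RNA is the denominator of the ratio, so no trend with RNA level is read from these rows. Gas5, whose name stands for growth arrest-specific and which holds several snoRNA genes, had 371 footprints and 9421 and 12745 RNA-seq counts, or 41.6 RPKM against 350.1 and 362. Its ratio of -2.52 ± 0.04 (interval -2.67 to -2.37) was the lowest of the class. Snhg1, host of Snord22 among others, had 142 footprints and 1902 and 2385 RNA-seq counts, and a ratio of -1.54 ± 0.03. Every other host of the class had fewer RNA-seq counts in both replicates.

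Snhg8, host of Snora24, had 34.0 footprints and 381 and 511 RNA-seq counts, a ratio of -1.34 ± 0.03 with an interval of -1.87 to -0.86. Snhg12, host of Snora44 and Snora61 among others, had 20.2 footprints and 272 and 358 RNA-seq counts, a ratio of -1.58 ± 0.02 with an interval of -2.29 to -0.96. Snhg4, host of Snora74a, had 19.3 footprints and 278 and 360.2 RNA-seq counts, a ratio of -1.67 with an interval of -2.40 to -1.04. These 3 and the pair above made up the 5 low hosts, and the intervals of Snhg8 and Snhg12 reach past -1.

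The other 5 hosts were within 2-fold of the coding median. Snhg5, host of Snord50a and Snord50b, had 67.7 footprints and 464 and 569.9 RNA-seq counts, a ratio of -0.56 ± 0.05. Snhg7 had 27 footprints and 202 and 221 RNA-seq counts, a ratio of -0.61 ± 0.18. Snhg6, host of Snord87, had 33.8 footprints and 196 and 219 RNA-seq counts, and Snhg18, host of Snord123, had 25 footprints and 142 and 167. Both of these stood at -0.26, with intervals of -0.79 to 0.22 and -0.89 to 0.30 that cover the coding median.

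Snhg3 was the only host above the coding median, at 0.98 ± 0.11, with 82.8 footprints and 179 and 259 RNA-seq counts. It holds Snora73a and Snora73b, shares 8.04% of its 30-base windows with Rcc1, the coding gene of the same locus, and 71.5% of its annotated exon bases lie opposite exons of Gm17300. Which of these loci its reads came from cannot be told apart, because the strand and the handling of multiply matching reads in the counting are not stated. Without the hosts whose exons overlap an exon of any other gene, snoRNA genes included, or that have no reference transcript, 1 row, Snhg18, is left.

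**Figure D4:**
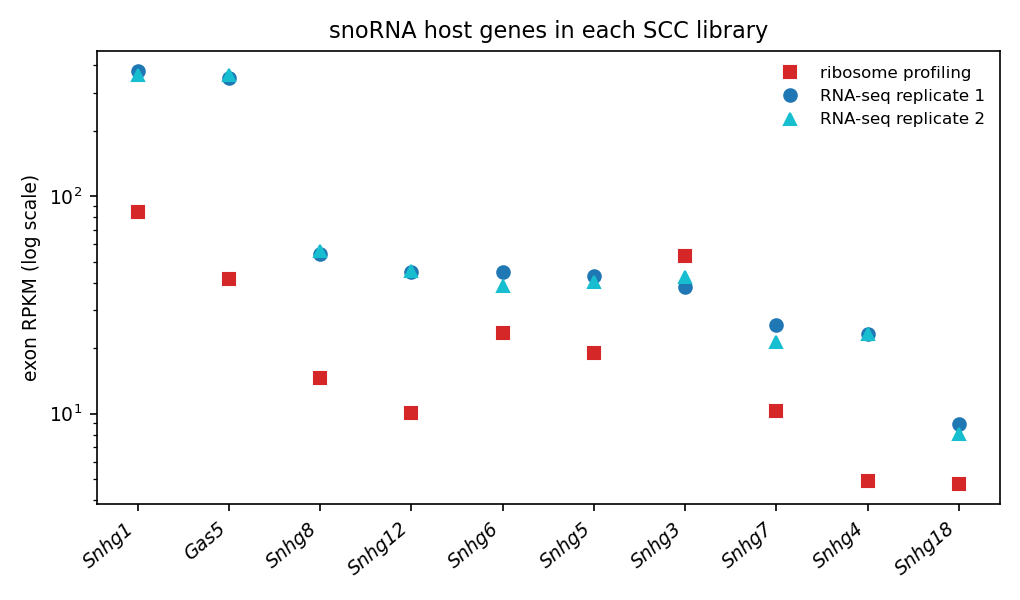
Exon RPKM (vertical axis, log scale) of the 10 Snhg and Gas5 host genes (horizontal axis, ordered by RNA) in the ribosome profiling library and both RNA-seq replicates. The RNA-seq replicates nearly coincide, the ribosome profiling value is the lower in 9 hosts, and Snhg3 at 53.4 RPKM against 38.2 and 42.4 is the exception.

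Several hosts stood in other classes under older names. Snhg16 (row 1810032O08Rik) had 12.6 footprints and 319.5 and 504 RNA-seq counts, a ratio of -2.64 ± 0.20. Snhg20 (2810008D09Rik) had 9 footprints and 285 and 450.3 RNA-seq counts, a ratio of -2.96 ± 0.20. Snhg17 (9430008C03Rik) stood at -1.58 ± 0.09, and Snhg15 (Gm11974) at -0.39 ± 0.09. 2410006H16Rik, which holds Snord49a, Snord49b and Snord65, was the most abundant of them, with 77.5 footprints, 2117 and 3133 RNA-seq counts and a ratio of -2.70 ± 0.13. Epb41l4aos (2410004N09Rik) had 21 footprints and 191 and 324 RNA-seq counts, a ratio of -1.22 ± 0.27, and Dancr, host of Snora26 and named for opposing differentiation, 5.37 footprints and 131 and 162, a ratio of -2.40 ± 0.05. Snhg14 (C230091D08Rik), the long transcript of the imprinted Snrpn locus, had 366 and 379 RNA-seq counts and 0 footprints, at least 24.3-fold below the coding median at the floor of 3 footprints. The row of Zfas1 (1500012F01Rik) has a counted CDS and was no noncoding row, but at -2.95, with 73.6 footprints and 2459 and 3449 RNA-seq counts, it lay among them.

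Over all lncRNA rows with a reference transcript, which leaves out Snhg14 and Snhg7, the 22 with a gene that GENCODE types as snoRNA inside had a median of -1.23 and none at 0 footprints, and the 313 without had a median of -2.96 and 115 at 0. The shares of low rows were close, 13 of 22 (59.1%) and 173 of 313 (55.3%), and 3 and 24 were high. Hosts were also the more abundant, and the part of RNA level in that difference was not tested. Coding snoRNA hosts gave another picture: of the 32 in the list, mostly ribosomal protein and translation factor genes, 23 were high and 1 low, with a median of 1.72. The low gene was Eef2, the translocase of elongation, at -1.45 with 8483 footprints. Counted exons of the 32 ran from 183 bases (Rpl12) to 8257 (Ncl), both high, and the part of counted length in these ratios was not tested. All 8 snoRNP protein genes were high, with a median of 2.09. Among them were Fbl, the methyltransferase of box C/D particles, at 3.01 on 308 counted bases, and Nop56 at 2.08. Nop56 is also among the 32 coding hosts. The 10 nonsense-mediated decay genes had a median of -0.12, and only Upf1, the helicase at the centre of that pathway, was called high, at 1.02. Beside these lists, 19% of all rows with 20 or more RNA-seq counts were high and 20.9% low.

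Mature snoRNAs act in the nucleolus, yet 11 of their 13 rows had a ratio above the coding median. These rows are short, with 37 to 139 counted bases, and had a median of 46.6 RNA-seq counts over both libraries. How well RNA-seq libraries of total mRNA captured such RNAs was not tested, so a high ratio does not show ribosomes on them. Snord96a, which lies within the Rack1 gene, had 404 footprints and 59.1 and 71.9 RNA-seq counts, a ratio of 4.99 ± 0.06. Its host row (Gnb2l1) had 6559.6 footprints and 45844 and 66865 RNA-seq counts, a ratio of -0.72. The snoRNA row was thus far above its host on this scale, at 1477 RPKM in ribosome profiling beside 1525 for the host and 71.6 and 66.7 RPKM in RNA-seq beside 3532 and 3939.6.

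Snora43 had 108 footprints and 25.4 and 26.7 RNA-seq counts, a ratio of 4.40 ± 0.21. Snora64, within Rps2, had 50.5 footprints and 12.1 and 18.3 RNA-seq counts, a ratio of 4.12 ± 0.16, beside 2.21 for Rps2. For these 2 the sequences above mark the family's box, and few RNA-seq counts stand under each ratio.

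Snord12, within the Zfas1 row, stood at 2.23 beside -2.95 for its host, and Snord16a, within Rpl4, at 3.11 beside -0.69. Snord47, within Gas5, stood at 4.12 beside -2.52 for its host, with 36.5 footprints and 8.58 and 13.5 RNA-seq counts. Snord104 and Snora17 were also high, at 2.78 and 2.75. Snord22 had the most RNA-seq counts of the class, 68.4 and 74.5, with 16.9 footprints and a ratio of 0.28, beside -1.54 for its host Snhg1. The 6 Snord rows had a median of 2.95 with 5 high, and the 7 Snora rows a median of 0.54 with 3 high. At the low end Snora28, within the translation initiation factor gene Eif5, had 3.02 footprints and 38.9 and 43.8 RNA-seq counts, a ratio of -1.41 with an interval of -3.68 to 0.13. Where both a snoRNA and its host had a ratio, footprints of the host's exons, of its introns and of the snoRNA itself cannot be told apart.

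Of 3 abundant lncRNAs, Neat1 and Tug1 held few footprints for their RNA and Malat1 more. Neat1, the scaffold of nuclear paraspeckles, had 45 footprints and 8161 and 10020.0 RNA-seq counts, a ratio of -5.29 ± 0.06 (interval -5.75 to -4.87). Tug1 had 16.5 footprints and 2503 and 2570.3 RNA-seq counts, a ratio of -4.92 ± 0.24 (interval -5.71 to -4.23). The interval of Neat1 lies below the 3′UTR median of -4.57, and that of Tug1 covers it. Malat1, a nuclear speckle RNA, had 345 footprints and 4256 and 4402 RNA-seq counts, and at -1.30 ± 0.23 it was far nearer to mRNAs than Neat1, its neighbour on the same chromosome (chr19:5795690-5802672 and chr19:5824708-5845478, both minus strand).

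LncRNAs known from the cytoplasm or from chromosome organisation lay between. Norad (row 2900097C17Rik), a cytoplasmic RNA that binds Pumilio proteins, had 73.4 footprints and 3716 and 4480 RNA-seq counts, a ratio of -3.44 ± 0.07. Firre, transcribed from the X chromosome and tied to nuclear organisation, had 45.0 footprints and 1635 and 2181 RNA-seq counts, a ratio of -3.03 ± 0.03. Oip5os1 (1700020I14Rik), also called Cyrano, had 12.4 footprints and 437 and 455 RNA-seq counts, a ratio of -2.81 ± 0.22. Pvt1, next to Myc, had 15 footprints and 202 and 227 RNA-seq counts, a ratio of -1.48 ± 0.14. All 4 were called low, the first 3 more than 4-fold below the coding median.

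Of the X-inactivation locus, Xist, the RNA that coats the inactive X, had 1 footprint and 7 and 15 RNA-seq counts, a ratio of -1.04 with an interval of -6.34 to 1.44. Jpx had 0.219 footprints and 12.9 and 12.0 RNA-seq counts, and Ftx 9 footprints and 44.5 and 57.5, a ratio of -0.13 with an interval of -1.26 to 0.80. Tsix had no RNA-seq count. At this depth, then, none of these genes could be placed with any precision. With 1 RPKM added to both values, Jpx, Xist and Ftx changed to the other side of 0.

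Kcnq1ot1, the unspliced antisense RNA of the imprinted Kcnq1 domain, was the most extreme of the named lncRNAs in the other direction, with 344 footprints and 66 and 70 RNA-seq counts. Spread over 83437 counted bases these are 1.16 RPKM in ribosome profiling and 0.0739 and 0.0599 in RNA-seq, a ratio of 4.69 ± 0.21. With 1 RPKM added to both values, it was 1.46. Where on the transcript its footprints lay cannot be told from counts per gene. Among imprinted lncRNAs under the limit, H19 had 2 and 6 RNA-seq counts, Meg3 2.50 and 3, and neither reached 1 footprint. Outside the rule for named genes, and picked after their values were seen, the lncRNA rows with the highest ratios were 2500004C02Rik at 5.37, with 105 footprints and 13 RNA-seq counts in each replicate, and B230208H11Rik at 4.59, with 137 footprints and 27.0 and 31.6.

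A long open frame did not go with more footprints in lncRNA rows. Those whose longest frame from ATG to stop reached 100 codons numbered 133 and had a median of -3.18, and the 202 with shorter frames -2.46. The former were also longer, with a median of 2301 counted bases beside 1524, and a longer RNA holds a longer frame by length alone.

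The lowest ratio of any row with footprints was that of Gm15441, an antisense RNA to Txnip. It had 1 footprint and 3942 and 5263 RNA-seq counts, a ratio of -9.79 with an interval of -15.10 to -7.31. Txnip, the thioredoxin-interacting protein, had 398 footprints and 21614 and 28909.6 RNA-seq counts, itself low at -3.61, and 36.2% of the exon bases of Gm15441 lie opposite its exons. How many RNA-seq counts of Gm15441 came from Txnip mRNA was not tested.

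Antisense position went with an absence of footprints over the whole set. Of 220 rows with no exon opposite another gene, 42 had 0 footprints (19.1%) and the median was -1.27. Of 68 rows with more than 25% of their exon bases opposite another gene, 36 had 0 footprints (52.9%). Of these 68, 44 were low (64.7%) and 1 was high (1.47%). lncRNAs alone gave 30 of 130 at 0 (23.1%) without an opposite exon and 34 of 60 (56.7%) with more than 25%. In 63 pairs where the opposite gene had a row, the noncoding row's RNA-seq RPKM stood at a median log2 of -1.44 to that of its partner (quartiles -2.57 and -0.74), so most were the rarer member. In such pairs RNA-seq reads of either strand cannot be told apart if counting ignored strand, and that is not stated.

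Examples of rows opposite another gene follow. 9130221H12Rik, with 52.0% of its exon bases opposite Gsk3a, a kinase gene of glycogen metabolism, had 0 footprints and 489 and 661 RNA-seq counts, at least 36.9-fold below the coding median. Gsk3a had 191 footprints and 1422 and 1866 RNA-seq counts. B230206H07Rik, opposite Eps8l2 over 46.0%, had 0 footprints and 351 and 621 RNA-seq counts, at least 30.6-fold below, and Eps8l2 had 393 footprints and 1729 and 2619. Plet1os, opposite Plet1, a placenta-expressed gene, over 20.96%, had 0 footprints and 419.7 and 565 RNA-seq counts, at least 31.6-fold below. Rows with names ending in os or as, for opposite strand or antisense, numbered 32, and 17 had no footprint.

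At 100 or more RNA-seq counts, 59 noncoding rows had 0 footprints and were not ranked. The remaining rows of the 5 lowest with footprints at that depth held 1 footprint or less. They were 4933439C10Rik with 0.531 footprints and 249 and 373 RNA-seq counts (-6.81, interval -16.24 to -3.65), 9530027J09Rik with 1 and 338 in both replicates (-6.05, interval -11.36 to -3.57), 9530082P21Rik with 0.314 and 79 and 97.5 (-5.76, interval -21.54 to -1.98), and Gm10814 with 1 and 221 and 308 (-5.67, interval -10.97 to -3.19). All 4 have exon bases opposite a coding gene, namely Zkscan17, Utp14a, Flywch1 and Capn1, over 11.0% to 28.1%. Such overlap was common: of lncRNA rows with a reference transcript, 130 had no exon base opposite another gene, 145 had up to 25% and 60 had more.

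MicroRNA rows were short and mostly empty of footprints. Of 10 hairpin rows, 7 had none. Mir3064, within the RNA helicase gene Ddx5, had 0 footprints and 129 and 161 RNA-seq counts, at least 9.33-fold below the coding median, while Ddx5 had 3991 footprints and a ratio of 1.15. Mir196a-1, of the Hox clusters, had 0 footprints and 30.4 and 32.0 RNA-seq counts, at least 2.03-fold below.

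The 3 hairpin rows that did hold footprints share sequence with mRNAs. Mir703 had 111 footprints and 283 and 318 RNA-seq counts, a ratio of 0.92 ± 0.15, and shares 38.8% of its 30-base windows with Eef1a1. None of these shared windows lies within a CDS. Eef1a1, the elongation factor gene, had 38974 footprints over all its exons. Mir682 had 27.7 footprints and 289.8 and 413 RNA-seq counts on 13 counted bases, a ratio of -1.28 ± 0.10, and shares 55.2% with the ribosomal protein gene Rpl37a. Mir8112 had 2.85 footprints and 20.4 and 17.4 RNA-seq counts, a ratio of -0.40 with an interval of -2.76 to 1.18, and shares 94.1% with Krcc1. Mir684-1, with 98.2% shared with Sumo2, had 0 footprints and too few RNA-seq counts to be called low. No mature sequence can be read from such counts, and the reads of these rows and of their look-alikes cannot be told apart.

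Host genes of miRNAs are long RNAs cut to release the hairpin, and examples follow. Mir22hg had 4.38 footprints and 216 and 279 RNA-seq counts, a ratio of -3.45 with an interval of -5.22 to -2.15. Mir17hg, host of the oncogenic cluster of that name, had 0 footprints and 75.8 and 95.2 RNA-seq counts, at least 5.51-fold below. Mir100hg (2610203C20Rik) had 7.40 footprints and 268 and 247 RNA-seq counts, a ratio of -2.78 ± 0.35. All 3 were called low. Dleu2, with 2 annotated miRNA genes inside, was not: it had 2.48 footprints and 13.3 and 17.6 RNA-seq counts, a ratio of -0.26 with an interval of -2.86 to 1.43.

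Pseudogenes held most of the noncoding footprints, and the highest counts sat on copies of very abundant mRNAs. Gm6548, a processed pseudogene that shares 32.0% of its 30-base windows with Eef1a1, had 8512 footprints and 20369.9 and 30264 RNA-seq counts, a ratio of 0.81 ± 0.14. Gm5478, a pseudogene in RefSeq but protein coding in GENCODE M21, with 15.7% of its windows in coding transcripts and most of these in the keratin gene Krt6b, had 4425 footprints and 6529 and 9860.2 RNA-seq counts, a ratio of 1.50 ± 0.16, beside 0.76 for Krt6b. Rps15a-ps4 and Rps15a-ps6, copies of a small ribosomal subunit gene with 47.8% and 69.5% shared, had 1468 and 1727 footprints. The former had 7258 and 9239 RNA-seq counts and a ratio of -0.12 ± 0.02, and the latter 3414 and 4291 and a ratio of 1.21 ± 0.03. Gm6402, which has no transcript in the reference, had 1652 footprints and 5188 and 8425 RNA-seq counts, a ratio of 0.35 ± 0.23. Of these 5 rows, 2 were high and 3 within 2-fold of the coding median. 6820431F20Rik, a pseudogene with 5.29% shared, was low, with 59.4 footprints and 2377 and 2797 RNA-seq counts, a ratio of -3.08 ± 0.10.

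The highest ratios among pseudogenes came from the Gapdh look-alikes. 3000002C10Rik had 6077 footprints and 16 and 15.5 RNA-seq counts, a ratio of 10.94 ± 0.30. Gm5069 had 6100 footprints and 25.2 and 26 RNA-seq counts, a ratio of 10.25 ± 0.23. Gm5523 had 6150 footprints and 341 and 495 RNA-seq counts, a ratio of 6.26 ± 0.11. The 3 footprint counts were close to each other although the RNA-seq counts were not. Gapdh itself, the glycolytic enzyme gene, had 24296 footprints and 22504 and 32474 RNA-seq counts, a ratio of 2.21. Of the 970 windows of 30 bases in the Gapdh CDS, 257 (26.5%) stand in 3000002C10Rik, 385 (39.7%) in Gm5069 and 322 (33.2%) in Gm5523, whereas of 899 windows as long as an RNA-seq read they hold 0, 1 and 11. How many of their footprints came from Gapdh mRNA was not tested.

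Shared sequence went with the ratio over the whole set. A 30-base window counted as shared when the same bases stand in a coding transcript of another gene. The 193 rows with no shared window had a median of -3.03, the 193 with up to 10% a median of -1.80, the 35 with 10 to 50% a median of 0.58, and the 24 with more than 50% a median of -0.26. Rows above 10% held 60.7% of the noncoding footprints and 40.9% and 42.1% of the RNA-seq counts. Among pseudogenes alone, the 21 with up to 10% shared had a median of -1.26 and the 47 above it 0.17. Windows could not be read for 44 rows without a reference transcript, and the counted exons and the reference transcripts differ in length for some rows, so the percentages describe the reference and not the counted bases.

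**Figure D5:**
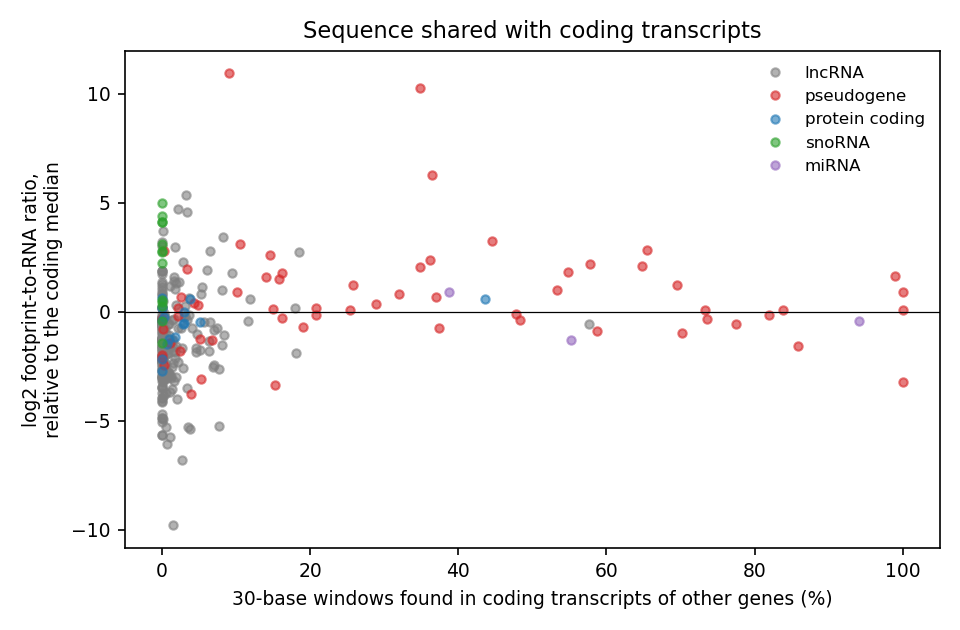
Log2 footprint-to-RNA ratio relative to the coding median (vertical axis) against the percent of 30-base windows found in coding transcripts of other genes (horizontal axis) for noncoding rows with footprints and a reference transcript, coloured by RefSeq class. Pseudogenes spread along the axis around a ratio of 0, while lncRNAs pile up at the left edge and reach down to -9.79.

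Rows with much shared sequence differed widely in footprints, as examples picked after their values were seen show. Gm5088, with 77.4% of its windows in the poly(A)-binding protein gene Pabpc4, had 0 footprints and 334 and 463 RNA-seq counts, at least 25.5-fold below the coding median, while Pabpc4 had 161 footprints. Gm10012, with 65.9% in Cox7c, a subunit of cytochrome c oxidase, had 0 footprints and 246 and 299 RNA-seq counts, at least 17.6-fold below. Gm12338, another Cox7c copy with 100% shared, had 417 footprints and 981 and 1330.1 RNA-seq counts, a ratio of 0.91 ± 0.04. Rpl14-ps1, with 85.9% in Rpl14, had 339 footprints and 4491 and 5803 RNA-seq counts and was low at -1.55. Zfa-ps, a relative of the zinc finger gene Zfx with 44.5% shared, had 96 footprints and 51 and 53 RNA-seq counts, a ratio of 3.24 ± 0.23. So of the 2 Cox7c copies Gm10012 was low and Gm12338 was not.

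A further 19 rows are protein coding in RefSeq although no CDS was counted. Their median of -0.36 lay within 2-fold of the coding median, with 6 low (31.6%) and 1 high (5.26%). Among all rows with 20 or more RNA-seq counts, these shares were 20.9% and 19%. Mtln (row 1500011K16Rik), which encodes the mitochondrial micropeptide mitoregulin, had 135 footprints and 320.1 and 514 RNA-seq counts, a ratio of 0.77 ± 0.22. 2610001J05Rik had 231 footprints and 696 and 818 RNA-seq counts, a ratio of 0.65 ± 0.10. BC029722 had 317 footprints and 1244 and 1641 RNA-seq counts, a ratio of 0.19 ± 0.02. Smim27 (Toporsos), a small membrane protein gene, was the high row, at 1.12 with 15 footprints and an interval of 0.28 to 1.84. Inafm2 (5430417L22Rik) was the lowest with footprints, at -2.72 with 22.8 footprints and 683 and 874 RNA-seq counts. Among rows still given as lncRNA, 3110039M20Rik had a ratio of the same size, 0.58 ± 0.05, with 238 footprints and 738 and 909 RNA-seq counts, but it overlaps Gm43517 on the same strand over 14.5% of its exon bases and shares 11.9% of its 30-base windows with that coding gene.

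Rows of ribosomal and other small stable RNAs differed among themselves. Rn4.5s, a small RNA of rodents, had 7420 footprints and 55.1 and 161 RNA-seq counts, a ratio of 8.55 ± 0.83, and alone held 12.8% of the noncoding footprints. Rn45s, the ribosomal RNA precursor, had 1107 footprints and 8393 and 11289 RNA-seq counts, a ratio of -0.78 ± 0.04, after the authors had removed ribosomal RNA reads from the ribosome profiling library. Among rows under the limit on RNA-seq counts, Rpph1, the RNA of RNase P, had 9927 footprints and 4 and 8 RNA-seq counts, and Rmrp, the RNA of RNase MRP, 5517 footprints and 3 and 2. Terc, the telomerase RNA, had 15 footprints and at most 1 RNA-seq count in a library. As background, the RNAs of RNase P, RNase MRP and telomerase are known from stable particles other than ribosomes. What protected the fragments of any of the rows named here was not tested.

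RNA-seq replicates differed most in rows with modest counts. Among members with 100 or more, the largest differences were in 9030619P08Rik, with 97.5 and 51.3 counts, D130020L05Rik, with 28.9 and 86.2, and Rn4.5s, with 55.1 and 161. Their SDs of 0.92, 0.85 and 0.83 on the ratio exceed that of any of the 10 Snhg and Gas5 rows, the largest of which was 0.18. The first of these, a pseudogene with 17 footprints, lay at 0.16, and its replicates put it at -0.35 and 0.95, so its side of the coding median was not settled.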

How the data were processed

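The authors aligned reads to GRCm38 with STAR 2.6.1 after trimming, and removed ribosomal RNA reads from the ribosome profiling library with Bowtie2 2.4.1. The deposited tables give estimated counts per gene for exons, CDS and UTRs, made with Plastid. The deposited RPKM columns use the authors' own library totals and were not used. Counting annotation, strand and multiply matching reads are not stated. RPKM were recomputed from exon counts, counted length and each library's exon sum. RNA-seq sums were rounded to 6 decimals before the minimum of 20, which takes in Gm6524. Members and lists were chosen with earlier results of these data known. Named genes are all Snhg and Gas5 hosts; per other class the 3 rows with most RNA-seq counts and the 3 with most footprints; among rows with 100 or more RNA-seq counts, 5 at each end of the ratio and 3 whose RNA-seq replicates differed most; a list of known noncoding RNAs; and examples picked afterwards, namely hosts under other names, further snoRNA, miRNA, antisense, pseudogene and RefSeq-coding rows. Biotypes, overlaps and sequences came from RefSeq GRCm38.p6 and GENCODE M21 (445 rows matched). A further sequence is not reported here. Alternatives covered minimum, pseudocount, scaling, overlap, biotype and length. Python 3.11.15, numpy 2.4.6, pandas 2.3.3, scipy 1.17.1, matplotlib 3.10.9, R 4.3.3, DESeq2 1.42.0 and edgeR 4.0.16 were used. The ratio was tested on simulated data, with changes placed in rows of 100 or more footprints. The low and high calls were not tested in that way.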

Additional observations from a re-analysis of the deposited data

How the results depend on the processing

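The 10 medians, counts and shares compared above were recomputed under alternatives, the 3′UTR median and the share of footprints under fewer than the others, with 69 values the same, 54 moved and 0 with the other sign. Medians were held to their spread, the share of footprints to its interval, and counts of genes to 1.5-fold of the main count. Of the 69, 25 could not have moved: library scaling by DESeq2 or edgeR cancels against the coding median, and no gene joins several names. Further values of the 69 were fixed too, because the alternative left out no gene of the class. Examples are Snhg and Gas5, Gm, Rik and other at 200 or more counted bases, and Snor without genes of over 4000 footprints. Leaving out an RNA-seq replicate gave -2.00 to -1.87 for all noncoding genes, -2.36 to -2.34 for Rik and -1.81 to -1.58 for other. With 1 RPKM added to both values, the medians were -0.48 for all noncoding genes, -1.04 for Snhg and Gas5, 2.47 for Snor, -0.37 for Gm, -0.52 for Rik, -0.47 for other and -2.38 for 3′UTRs, and Jpx and Xist stood at 0.081 and 0.39. At 100 or more RNA-seq counts, they were -2.04 for all, -1.82 for Gm, -2.86 for Rik and -1.46 for other, with 17 genes above 1 and 1.25% of footprints. At 1 count in each RNA-seq library, they were -2.17 for all, -0.53 for Snhg and Gas5, 4.06 for Snor, -1.76 for Gm and -2.93 for Rik, with 171 genes above 1 and 2.46% of footprints.

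Without genes annotated protein coding or pseudogene or not named, the medians were -2.56 for all, -3.09 for Gm, -2.66 for Rik and -3.03 for other, with 38 genes above 1 and 0.355% of footprints. Without genes that overlap an exon of another gene, and without the 44 that have no reference transcript, they were -1.31 for all, -0.26 for Snhg and Gas5, -0.50 for Gm, -1.79 for Rik and -0.72 for other, with 85 genes below -1, 29 above 1 and 0.820% of footprints, from 182 genes. At 200 or more counted bases, the median was -2.04 for all, with 1.61% of footprints. Measured against CDS footprints, which lie higher, the medians were -2.73 for all, -1.79 for Snhg and Gas5, 1.94 for Snor, -2.30 for Gm, -3.17 for Rik and -2.66 for other.

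Alternatives chosen after seeing the data left out genes with over 4000 footprints, giving -1.75 for Gm, -2.39 for Rik and 0.549% of footprints, or both genes sharing over 10% of 30-base windows with coding transcripts and the same 44, giving -2.36 for all, -1.34 for Snhg and Gas5, -2.58 for Gm, -2.56 for Rik and -2.43 for other, with 37 genes above 1 and 0.346% of footprints. Where the 44 were left out too, the part of each choice was not separated. Where genes were left out, how far their number accounts for the smaller counts and shares was not tested, nor were other causes. Of the ratios of 55 named genes, 299 values stayed within their spread (110 of them under library scaling, which cancels), 131 moved beyond it and 2, Jpx and Xist, were low and changed sign. Some ratios within 2-fold of the coding median crossed 0 as well. The Mir class has no numeric median, and no Snor gene has 200 counted bases, so neither gave a value. No paired analysis was possible because the labels pair no ribosome profiling library with an RNA-seq replicate. Depth limits calls on genes with 0 footprints.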
